A study of Mus musculus with 36 samples.

Results

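The 44 genes described here encode enzymes of phase II conjugation, the step in which a drug, hormone, bile pigment or reactive metabolite is joined to a polar group taken from a cofactor. They were chosen by name as glutathione, glucuronosyl, sulfo and acetyl transferases, and the rule used no measured value. Earlier results of these data were known when they were chosen. Each symbol matched 1 gene identifier, so that all 44 were found among the 78239 genes listed for every library. They comprise 15 cytosolic glutathione S-transferases of the classes alpha, mu, pi and theta, 3 other glutathione transferases (*Gstz1*, *Gsto1* and *Gstk1*), 3 microsomal glutathione S-transferases, 13 UDP-glycosyltransferases of the UGT1, UGT2 and UGT3 families, 7 sulfotransferases and 3 N-acetyltransferases.

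Glutathione transferases are mostly soluble enzymes that add glutathione to electrophiles. UDP-glycosyltransferases sit in the membrane of the endoplasmic reticulum and add a sugar, usually glucuronic acid, whereas sulfotransferases are soluble and take sulfate from the cofactor PAPS. The acetyltransferases use acetyl-CoA. The products are more soluble than the parent compounds and leave the body in bile or urine. The liver is the best known site of this chemistry, and the kidney and other organs hold parts of it.

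The data are polyA RNA-seq of heart, kidney and liver from male C57BL/6NCrl mice of genotype WT, untreated apart from anaesthesia at collection, taken when the mice were 8, 10 or 12 weeks old. Each of the 9 groups of tissue and age has 4 libraries, 36 in all. The mice were of 1 sex and 1 vendor strain, and the tissue was frozen without sorting cells, so that the values are averages over all its cell types. The study asked how transcription in the heart changes over adolescence, with kidney and liver measured beside it. The study describes the 4 libraries of a group as biological replicates. The labels number the replicates 1 to 4 without naming an animal, and do not say which libraries of different tissues share a mouse. The p-values measure the spread between these libraries only.

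Between 21031599 and 33637390 read pairs were assigned to genes per library. The 44 genes took 1.16% to 1.57% of them in liver, 0.580% to 0.681% in kidney and 0.0773% to 0.105% in heart. The tissue labels matched the marker genes. Levels are given as CPM, the count scaled to a common library size over the 36 libraries. Summed CPM of 9 hepatocyte genes ran from 125818 to 202346 in liver, against at most 402 elsewhere. For 9 proximal tubule genes the sum was 20888 to 26878 in kidney against at most 9.93 elsewhere, and for 8 cardiomyocyte genes 52871 to 70623 in heart against at most 3.76 elsewhere. Red cell genes (5) summed to 143 to 252 CPM in liver, 0.922 to 4.94 in kidney and 205 to 904 in heart. No replicates were alike enough to be 1 library deposited again, the closest of 54 pairs within groups having a chi-square of 5.90 per gene. In heart at 10 weeks, the libraries labelled replicates 2 and 4 held 224 and 368 pairs of *Alb*, a hepatocyte gene, against 0 in all 8-week heart libraries, and at 12 weeks replicate 4 held 70 against 2, 10 and 0 in the others. The proximal tubule genes summed to 1.19 to 2.13 CPM in heart at 8 weeks, 2.78 to 5.65 at 10 and 3.10 to 9.93 at 12. The 10-week replicates 2 and 4 also held 33 and 50 pairs of the 22 members that were too low to be tested in heart, against 2 to 14 in the other 10 heart libraries. The part of liver or kidney RNA in the heart values was not tested.

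Sequences before the starts of UGT2 genes are shown because neighbouring copies had very different levels in liver and kidney. The longest run of letters shared by *Ugt2b5*, *Ugt2b37* and *Ugt2b38*, in the 250 bases before each canonical transcript start (GRCm39), was 56 bases. These 3 genes were picked for the comparison, and of 21770 promoters only theirs held the run. The last 100 bases before the start are printed here for these genes (*Ugt2b5* chr5:87288212-87288311, *Ugt2b37* chr5:87402664-87402763, *Ugt2b38* chr5:87572063-87572162) and for *Ugt2b36* (chr5:87240423-87240522), all read 5′ to 3′ on the minus strand. Capitals mark letters identical to the run.
Ugt2b5: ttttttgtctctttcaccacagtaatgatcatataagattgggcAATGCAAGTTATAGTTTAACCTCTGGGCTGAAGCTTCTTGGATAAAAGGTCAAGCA
Ugt2b37: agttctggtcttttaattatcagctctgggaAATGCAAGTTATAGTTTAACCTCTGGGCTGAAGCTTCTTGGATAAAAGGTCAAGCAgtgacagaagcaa
Ugt2b38: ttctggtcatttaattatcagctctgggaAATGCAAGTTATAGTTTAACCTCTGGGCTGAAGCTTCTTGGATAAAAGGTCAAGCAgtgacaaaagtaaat
Ugt2b36: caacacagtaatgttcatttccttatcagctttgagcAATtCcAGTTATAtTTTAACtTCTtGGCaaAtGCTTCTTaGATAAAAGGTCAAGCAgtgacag

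The run ends at the last base before the start of *Ugt2b5*, and 14 and 16 bases before the starts of *Ugt2b37* and *Ugt2b38*, counting the base before the start as 1. *Ugt2b36* differed from it at 9 of 56 bases, and *Ugt2b1*, the next closest, at 22. *Ugt2b5* was a liver gene in these data while *Ugt2b37* and *Ugt2b38* were kidney genes. The run was defined as letters that all of these genes share, so by that choice it could not separate the tissues.

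A known motif of HNF1, a homeodomain factor of liver and kidney epithelium, was searched for on both strands as GTTAAT, any 1 base and ATT. It lay in the same window of 5 of the 44 genes (11.4%) against 81 of 21770 promoters (0.372%). Those 5 genes are printed because they divide between the organs: *Ugt1a1* (chr1:88139579-88139678, plus strand) and *Ugt1a9* (chr1:87998350-87998449, plus strand) were liver genes in these data, whereas *Sult1c2* (chr17:54153419-54153518), *Sult1d1* (chr5:87716934-87717033) and *Sult2a3* (chr7:13857004-13857103), on the minus strand, were highest in kidney. Capitals mark the match.
Ugt1a1: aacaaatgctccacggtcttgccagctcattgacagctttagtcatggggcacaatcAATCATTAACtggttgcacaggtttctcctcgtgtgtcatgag
Ugt1a9: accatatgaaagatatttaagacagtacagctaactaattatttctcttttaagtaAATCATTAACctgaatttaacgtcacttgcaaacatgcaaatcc
Sult1c2: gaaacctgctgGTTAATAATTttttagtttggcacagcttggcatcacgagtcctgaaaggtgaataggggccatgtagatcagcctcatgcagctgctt
Sult1d1: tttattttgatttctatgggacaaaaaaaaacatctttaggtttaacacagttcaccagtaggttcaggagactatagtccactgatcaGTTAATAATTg
Sult2a3: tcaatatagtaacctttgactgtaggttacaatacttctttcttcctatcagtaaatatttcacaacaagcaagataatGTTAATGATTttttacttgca

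An HNF4 motif, CAAAGTCCA, was found in *Nat8* alone among the members (2.27%, against 0.372% of all promoters). The core of the antioxidant response element, TGACNNNGC, was found in *Gsta3* and *Gstm5* (4.55%, against 9.69%). No motif overlapped another. These are matches of letters and were not tested as binding sites.

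The organs used different sets of conjugating enzymes. Mean CPM was highest in liver for 29 of the 44 genes, in kidney for 12 (*Gsta2*, *Gstm5*, *Gstt2*, *Mgst2*, *Ugt2b37*, *Ugt2b38*, *Ugt3a1*, *Ugt3a2*, *Sult1c2*, *Sult1d1*, *Sult2a3* and *Nat8*) and in heart for 3 (*Gsta4*, *Gsto1* and *Mgst3*). CPM rests on library sizes scaled by TMM factors, which were 0.724 to 0.821 in liver, 1.30 to 1.42 in kidney and 0.896 to 0.981 in heart. A lower factor raises CPM. *Gstt3* had 11165 pairs in liver and 12738 in kidney, and *Nat2* had 5409 and 6317, yet both had the higher CPM in liver. Tissues were compared as the mean of their 3 age groups in 1 edgeR quasi-likelihood fit of all 36 libraries, and a gene was called at a Benjamini-Hochberg adjusted p under 0.05 and a log2 difference over 1. Of 43 members tested, liver was higher than kidney for 29 and lower for 10, where 17.2% and 30.6% of all genes were called. Against heart, liver was higher for 35 (26.5% of all genes) and lower for 2 (28.7%), *Gstm5* and *Mgst3*. *Gsta4* (-0.09 ± 0.10, liver minus heart) and *Gsto1*, counted above as highest in heart, were not called between these organs. Neither was *Gstm2* (0.16 ± 0.08), counted above as highest in liver. Kidney was higher than heart for 23 (30.8%) and lower for 6 (21.9%). The median of all genes differed by -0.16 (log2) between liver and kidney and by 0.15 between kidney and heart, and the differences and calls given here are not corrected for those shifts. With the shift taken off, the difference of *Gstm5* between kidney and heart (1.11 ± 0.08, SE) would fall under 1, and that of *Gstm2* (-0.92 ± 0.08) would fall below -1. The members not called between liver and kidney were *Gstt2* (-0.85 ± 0.07), *Gstt3* (0.62 ± 0.08), *Sult1d1* (-0.90 ± 0.14) and *Nat2* (0.63 ± 0.09).

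**Figure D1:**
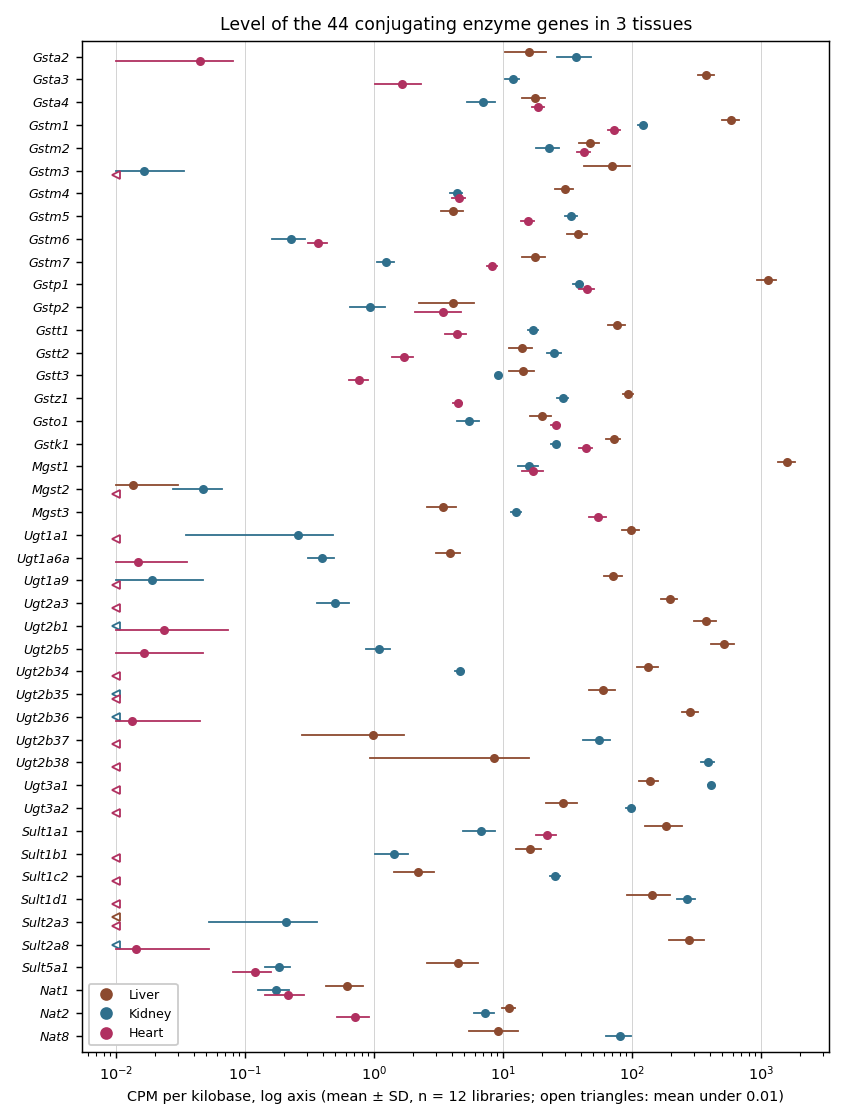
Level of the 44 genes in CPM per kilobase of exon (log axis), as mean ± SD of 12 libraries for liver, kidney and heart, with open triangles for means under 0.01. *Mgst1* and *Gstp1* lead in liver, *Ugt3a1* and *Ugt2b38* in kidney, and *Gstm1* and *Mgst3* in heart.

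The balance of families differed as well. UGT2 genes made up 25.7% of the members' summed CPM in liver and 18.4% in kidney. UGT3 genes made up 3.23% in liver and 37.2% in kidney. In heart the mu class took 33.8% and the microsomal enzymes 23.9%. Levels of different genes are compared below per kilobase of exon that no other gene overlaps.

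The UGT2 family divided between liver and kidney. These enzymes glucuronidate steroids, bile acids and many drugs, and their 8 genes lie together on chromosome 5, beside *Sult1b1* and *Sult1d1*, between positions 87037626 and 87716933 (GRCm39). In liver the highest was *Ugt2b5* (chr5:87272226-87288211), at 510.1 ± 104 CPM per kb (SD, n = 12), followed by *Ugt2b1* (372 ± 72.0), *Ugt2b36* (282 ± 40.5) and *Ugt2a3* (194 ± 26.3). In kidney it was *Ugt2b38* (chr5:87557801-87572062), at 386 ± 45.8 CPM per kb, followed by *Ugt2b37* (chr5:87388352-87402663) at 54.7 ± 12.9. The ranges did not meet. *Ugt2b38* ran from 603 to 864 with a median of 750.0 CPM in the 12 kidney libraries and from 3.93 to 50.2 with a median of 11.3 in the 12 liver libraries. *Ugt2b5* ran from 1.91 to 3.95 with a median of 2.68 in kidney and from 908 to 1613 with a median of 1291 in liver.

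On the log2 scale liver exceeded kidney by 8.85 ± 0.15 for *Ugt2b5*, 8.61 ± 0.12 for *Ugt2a3* and 4.84 ± 0.10 for *Ugt2b34*, whereas the difference was -5.92 ± 0.21 for *Ugt2b37* and -5.57 ± 0.35 for *Ugt2b38*. *Ugt2b1* and *Ugt2b36* had no pair in any of the 12 kidney libraries, against 278113 and 226873 pairs in liver, and *Ugt2b35* had 5 against 64785. A count of 0 over a group allows up to 3 pairs. Thus the genes held by the 2 organs alternate along the cluster: *Ugt2b37* lies between *Ugt2b5* and *Ugt2a3*, and *Ugt2b38* lies beyond *Ugt2a3*. Of the 150-base windows of *Ugt2b38*, 19.2% also occur in *Ugt2b5* (11.4% of the windows of the latter), and pairs from those stretches are lost or may be misassigned between them.

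**Figure D2:**
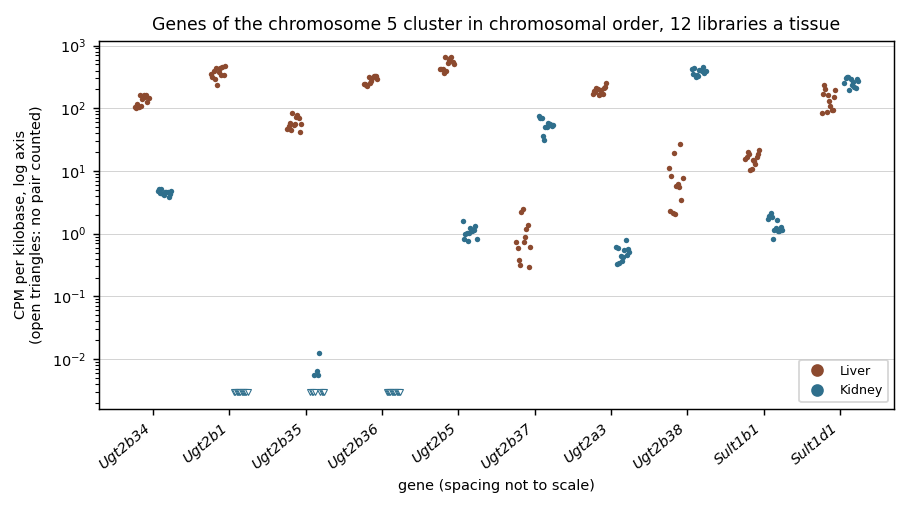
CPM per kilobase (log axis) of the 10 members in the chromosome 5 cluster, in chromosomal order with spacing not to scale, 1 point for each of 12 libraries per tissue and open triangles where no pair was counted. *Ugt2b37* and *Ugt2b38* are high in kidney between genes that are high in liver, and heart is not drawn.

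The UGT3 genes, whose products use UDP-sugars other than UDP-glucuronic acid, are neighbours on chromosome 15 and were kidney genes that liver also used. *Ugt3a1* (chr15:9335636-9371564) was the highest member of all in kidney, at 406 ± 22.5 CPM per kb, and alone made up 31.6% of the members' summed CPM there. It ran from 1322 to 1612 with a median of 1477 CPM in kidney and from 328 to 591 with a median of 498 in liver. *Ugt3a2* (chr15:9276974-9315118) stood at 259 ± 22.1 CPM in kidney and 78.1 ± 20.7 in liver. The log2 differences, liver minus kidney, were -1.59 ± 0.07 and -1.76 ± 0.08.

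The UGT1 genes were counted mainly in liver. *Ugt1a1*, the enzyme that conjugates bilirubin, had 9257 pairs in liver, 46 in kidney and 0 in heart, and *Ugt1a9* had 17022, 8 and 0. *Ugt1a6a*, a phenol-conjugating form, stood at 9.31 ± 1.96 CPM in liver and 0.963 ± 0.222 in kidney. The genes of this locus share their last exons, which overlap for 88.4%, 56.7% and 70.9% of the exon length of *Ugt1a1*, *Ugt1a6a* and *Ugt1a9*. Pairs in shared exons were counted for no gene, so these CPM values understate the locus.

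Among the glutathione transferases the microsomal enzyme *Mgst1* (chr6:138117314-138133774), which also reduces lipid peroxides, was the highest member of all in liver. It measured 1593 ± 246 CPM per kb there, and ran from 2365 to 3991 with a median of 3252 CPM, whereas in kidney it ran from 22.6 to 42.8 with a median of 30.7, a log2 difference of 6.65 ± 0.10. *Gstp1* (chr19:4085405-4088068), of the pi class, followed at 1121 ± 189 CPM per kb, and *Gstm1*, of the mu class, at 584 ± 90.4. *Gsta3*, an alpha-class enzyme known for conjugating aflatoxin epoxide, stood at 375 ± 52.2. Liver exceeded kidney by 4.98 ± 0.15 for *Gsta3*, 4.87 ± 0.09 for *Gstp1* and 2.28 ± 0.07 for *Gstm1*. *Gstp1* and *Gstp2* share 17.1% and 36.9% of their 150-base windows with each other or with a pseudogene, so the low *Gstp2* values (4.83 ± 2.20 CPM in liver) are uncertain.

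*Gsta2* and *Gstm5* went the opposite way. *Gsta2* was higher in kidney, at 78.9 ± 23.0 CPM against 33.9 ± 11.8 in liver (log2 difference -1.24 ± 0.13), as was *Gstm5*, at 36.6 ± 3.91 against 4.49 ± 0.875 (-3.02 ± 0.09). *Gsta2* shares 10.5% of its windows with other alpha-class genes, and 14.6% of the exon length of *Gstm5* is overlapped by another gene. *Gstm3* was higher in liver, at 120.1 ± 47.2 CPM against 13 pairs over all kidney libraries. In the theta class *Gstt1* was a liver gene (217 ± 33.1 CPM, against 48.9 ± 4.65 in kidney), while *Gstt2* stood at 122 ± 14.6 in kidney and 68.0 ± 14.1 in liver. *Gstz1*, which acts in tyrosine breakdown as well, was high in both, at 721 ± 61.1 and 224 ± 21.2 CPM.

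The other mu genes were higher in liver than in kidney: *Gstm2* stood at 90.2 ± 15.7 CPM against 43.2 ± 8.86, *Gstm4* at 64.6 ± 10.6 against 9.39 ± 0.990, *Gstm6* at 142 ± 24.9 against 0.848 ± 0.245 and *Gstm7* at 73.3 ± 14.8 against 5.18 ± 0.765. *Gstt3* stood at 43.8 ± 9.68 CPM in liver and 28.2 ± 1.20 in kidney, and other genes overlap 19.6% of its exon length. *Mgst2*, which is known for making leukotriene C, was near 0 in every organ, with 13 pairs over the liver libraries, 83 over kidney and 12 over heart, and was not tested.

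In heart 18 of the 21 glutathione transferases passed the count filter, all but *Gsta2*, *Gstm3* and *Mgst2*. Per kilobase *Gstm1* led with 72.2 ± 7.68 CPM, then *Mgst3* with 53.9 ± 8.05, *Gstp1* with 44.8 ± 5.98, *Gstk1*, a mitochondrial and peroxisomal form, with 43.6 ± 5.06 and *Gstm2* with 42.4 ± 4.88. *Mgst3*, a microsomal enzyme with peroxidase activity, ran from 147 to 242 with a median of 196 CPM in heart, from 40.2 to 51.6 with a median of 44.4 in kidney and from 6.84 to 17.2 with a median of 12.3 in liver, with no overlap between the tissues. The log2 difference was -3.98 ± 0.11 for liver minus heart and -2.09 ± 0.10 for kidney minus heart. Kidney was also lower than heart for *Gsto1*, a thioltransferase (-2.24 ± 0.08), *Gstm7* (-2.72 ± 0.09) and *Gsta4*, which clears aldehydes of lipid peroxidation (-1.43 ± 0.10). No UGT or *Nat8* reached 12 pairs over the 12 heart libraries except *Ugt2b1*, with 19. Of those 19 pairs, 16 came from the 10-week libraries that held *Alb* and 3 from 12-week replicate 4. The sulfotransferase *Sult1a1* stood at 55.4 ± 10.2 CPM in heart and was lower in kidney (kidney minus heart -1.70 ± 0.13).

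Sulfotransferases divided between liver and kidney too. *Sult2a8*, a bile acid and steroid sulfotransferase, was the highest in liver per kilobase (276 ± 84.1) and had 0 pairs in kidney. *Sult1a1*, the main phenol sulfotransferase, stood at 464 ± 148 CPM in liver and 17.1 ± 4.68 in kidney, a log2 difference of 4.75 ± 0.15, and 15.4% of its exon length is overlapped by *Sgf29*. *Sult1d1*, which sulfates catechols, was the leading form in kidney at 265 ± 42.4 CPM per kb, and ran from 495 to 804 with a median of 674 CPM there and from 208 to 599.8 with a median of 354 in liver. *Sult1c2* (chr17:54136151-54153418) was 61.1 ± 5.71 CPM in kidney against 5.24 ± 1.82 in liver (-3.57 ± 0.10). *Sult2a3* (chr7:13801371-13857003) was counted in kidney only, with 102 pairs there and 0 in all liver and heart libraries. *Sult1b1*, known for thyroid hormones, and *Sult5a1* were higher in liver, at 46.5 ± 10.2 and 27.4 ± 11.7 CPM against 4.14 ± 1.19 and 1.12 ± 0.250 in kidney.

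*Nat8* (chr6:85807364-85809664) acetylates cysteine conjugates, the final step from a glutathione conjugate to a mercapturic acid. It ran from 83.7 to 190.1 with a median of 130.1 CPM in kidney and from 5.62 to 25.1 with a median of 15.8 in liver, with a log2 difference of -3.21 ± 0.13, and had 1 pair over all heart libraries. The arylamine acetyltransferases were low: *Nat2* stood at 21.4 ± 2.43 CPM in liver and 14.0 ± 2.55 in kidney, and *Nat1* at 1.52 ± 0.482 and 0.423 ± 0.117.

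In liver from 8 to 12 weeks the members leaned upward, but none passed the test. Of 42 members tested, 34 had a log2 fold change above 0, with a median of 0.27, while 49.3% of all 14672 genes were above 0 and their median was -0.00. In the edgeR fit of the 12 liver libraries 0 members passed an adjusted p under 0.05 in either direction, where 0.177% of all genes were called higher and 0.0613% lower. At an unadjusted p under 0.05 there were 16 higher (7.37% of all genes) and 1 lower (7.77%). For 12 members every 12-week library lay above every 8-week library (4.4% of all genes), and for 0 below (3.54%).

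The number called in liver depended on the tool: DESeq2 called 11 members higher (1.63% of all genes), limma-voom 1, *Nat8* (0.177%), and edgeR without the count filter 8 (0.588%). Leaving out 1 library at a time gave 0 to 3 calls (0.0137% to 0.390% of all genes higher), 30 to 36 members above 0 and a median of 0.21 to 0.32. The calls came without 10-week replicate 2 (*Nat8*, *Ugt2b36* and *Ugt3a2*), 12-week replicate 4 (*Ugt2b36*), 8-week replicate 3 (*Nat8*) and 8-week replicate 4 (*Gsta2*).

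**Figure D3:**
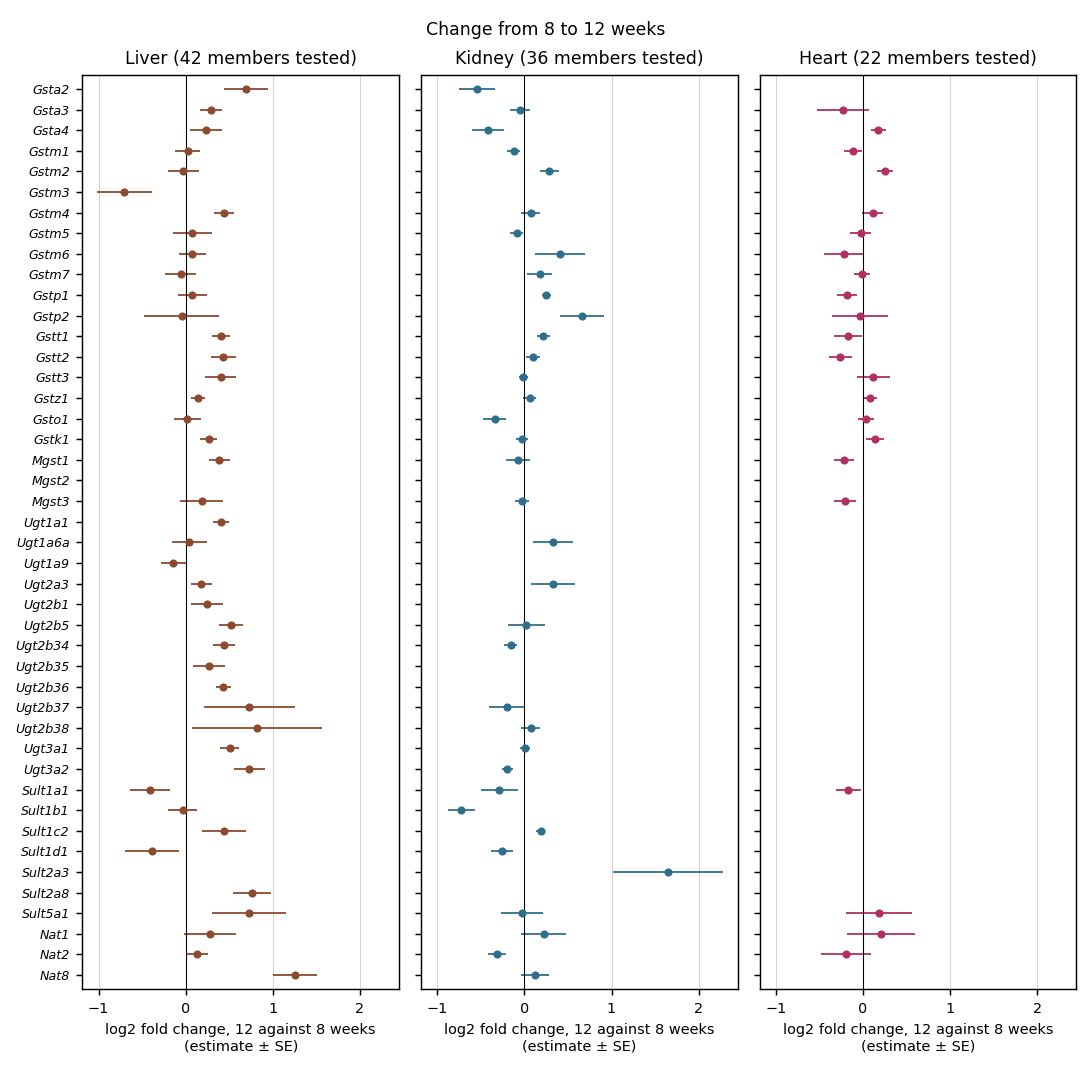
Log2 fold change from 8 to 12 weeks (edgeR estimate ± SE) of each member tested in liver (42), kidney (36) and heart (22), on 1 shared axis. Liver estimates lie mostly above 0, whereas those of kidney and heart lie on both sides.

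All 8 UGT2 genes had estimates above 0 in liver, with a median of 0.43, and their summed CPM was 3913 ± 207 at 8 weeks, 4730.2 ± 841 at 10 and 5101 ± 377 at 12 (SD, n = 4). *Ugt2b36* was 767, 784, 742 and 715 CPM at 8 weeks, 1012, 820.3, 881 and 963 at 10 and 1047, 1061, 1047 and 919.7 at 12. The 8-week libraries lay below all later ones, and the change to 12 weeks was 0.43 ± 0.09 on the log2 scale (edgeR adjusted p = 0.0649). *Ugt2b5* was 1051, 1046, 1057 and 908 CPM at 8 weeks and 1604, 1613, 1342 and 1279.9 at 12, with no overlap (log2 0.52 ± 0.14, edgeR adjusted p = 0.128). *Ugt2b34* also separated these ages (log2 0.44 ± 0.12).

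The kidney form *Ugt2b38* varied widely in liver: 21.5, 4.28, 15.9 and 4.09 CPM at 8 weeks, 36.2, 3.93, 10.7 and 11.9 at 10 and 10.4, 50.2, 6.64 and 14.8 at 12. The ages overlapped, and the estimate of 0.82 ± 0.75 (edgeR adjusted p = 0.648) turned to -0.11 without 12-week replicate 2. Its spread within ages, an SD of 1.26 on the log2 scale, was above that of 99.3% of the genes tested in liver, and *Ugt2b37*, at 0.79, was above 95.8%. The 9 proximal tubule genes summed to 0.434 to 3.60 CPM in the same libraries, and the part of kidney RNA in these values was not tested.

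Of the UGT3 genes, *Ugt3a1* was 428, 413, 458 and 328 CPM in liver at 8 weeks, 557, 458, 463 and 533 at 10 and 591, 580.0, 570.4 and 578 at 12. The 12-week libraries were above all others and close together, with a log2 change from 8 weeks of 0.50 ± 0.11 (edgeR adjusted p = 0.0706). *Ugt3a2* was 66.5, 64.0, 58.0 and 41.0 at 8 weeks, 88.2, 55.3, 81.1 and 99.7 at 10 and 108, 96.3, 86.2 and 93.2 at 12. Its 8-week and 12-week libraries did not overlap (log2 0.73 ± 0.18, edgeR adjusted p = 0.101). *Ugt1a1* was 35.7, 30.2, 31.7 and 32.1 at 8 weeks and 46.7, 40.9, 39.1 and 46.2 at 12, again without overlap (log2 0.41 ± 0.09, edgeR adjusted p = 0.0882). The other UGT1 genes did not share this rise, and the median of the 3 was 0.04. *Ugt1a9* averaged 74.7 ± 8.63 CPM at 8 weeks and 68.1 ± 12.8 at 12, and *Ugt1a6a* 9.30 ± 2.86 and 9.63 ± 1.93.

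The largest estimate among the 42 members in liver was that of *Nat8*. It was 9.63, 7.65, 15.5 and 5.62 CPM at 8 weeks, 18.9, 11.1, 16.1 and 13.2 at 10 and 21.2, 23.6, 22.1 and 25.1 at 12. All 12-week libraries were above all earlier ones, while the 8-week and 10-week libraries overlapped. The change from 8 to 12 weeks was 1.25 ± 0.25 on the log2 scale, with an edgeR adjusted p of 0.0649 (0.000174 to 0.186 over the alternatives). It passed the threshold with DESeq2, with limma-voom and without the count filter.

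Among glutathione transferases in liver, the 3 theta genes were above 0, each at an unadjusted p under 0.05, and their sum went from 289 ± 16.7 CPM to 386 ± 36.9. *Gstt2* was 79.4, 57.1, 48.7 and 59.4 at 8 weeks, 65.6, 49.1, 57.6 and 67.2 at 10 and 81.9, 87.5, 87.8 and 75.3 at 12, and its 12-week libraries lay above those of 10 weeks but not above all of 8 weeks (log2 0.43 ± 0.14 from 8 weeks). *Mgst1* was 2713, 2923, 3472 and 2365 at 8 weeks, 3141, 2778, 3363 and 3036 at 10 and 3718, 3991, 3482 and 3891 at 12. Its 12-week libraries exceeded all others, and the change was 0.39 ± 0.12 (edgeR adjusted p = 0.167). *Gsta2* was 25.3, 18.5, 20.5 and 47.3, then 25.1, 26.2, 26.8 and 36.4, then 54.5, 41.4, 47.7 and 36.7 CPM at the 3 ages, where 8-week replicate 4 reached the 12-week range (log2 0.69 ± 0.25). *Gsta3* was 1366, 1745, 1969.7 and 2038 at 8 weeks and 2022, 2133, 2409 and 2172 at 12, which overlap (log2 0.29 ± 0.13).

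The mu and pi classes did not share the lean: 4 of 7 mu genes were above 0, with a median of 0.02. *Gstm1* was 1272, 1519, 1433 and 1700.0 CPM at 8 weeks and 1422, 1397, 1958 and 1266 at 12, and *Gstp1* was 1671, 1639, 2072 and 1846 and 1327, 2142, 2294 and 1901. Both overlapped. *Gstm3* had the lowest estimate of the members: 141, 147, 157 and 208 at 8 weeks, 45.3, 151, 105 and 84.7 at 10 and 84.7, 77.2, 161 and 79.9 at 12, where replicate 3 reached the 8-week range (log2 -0.70 ± 0.32, edgeR adjusted p = 0.319).

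Sulfotransferases were divided, with 3 of 6 above 0. *Sult2a8* was 1123, 1031, 895 and 559.6 CPM at 8 weeks and 1469, 1795, 1470.0 and 1419.6 at 12, without overlap (log2 0.76 ± 0.22, edgeR adjusted p = 0.157). *Sult1a1* was 551, 503, 479 and 801 at 8 weeks, 317, 524, 296 and 321 at 10 and 349, 343, 583 and 495 at 12, and the ages overlapped (log2 -0.41 ± 0.23). *Sult1d1* was 208, 419.9, 599.8 and 518 and 234, 236, 385 and 485 at 8 and 12 weeks, also with overlap (log2 -0.39 ± 0.31).

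**Figure D4:**
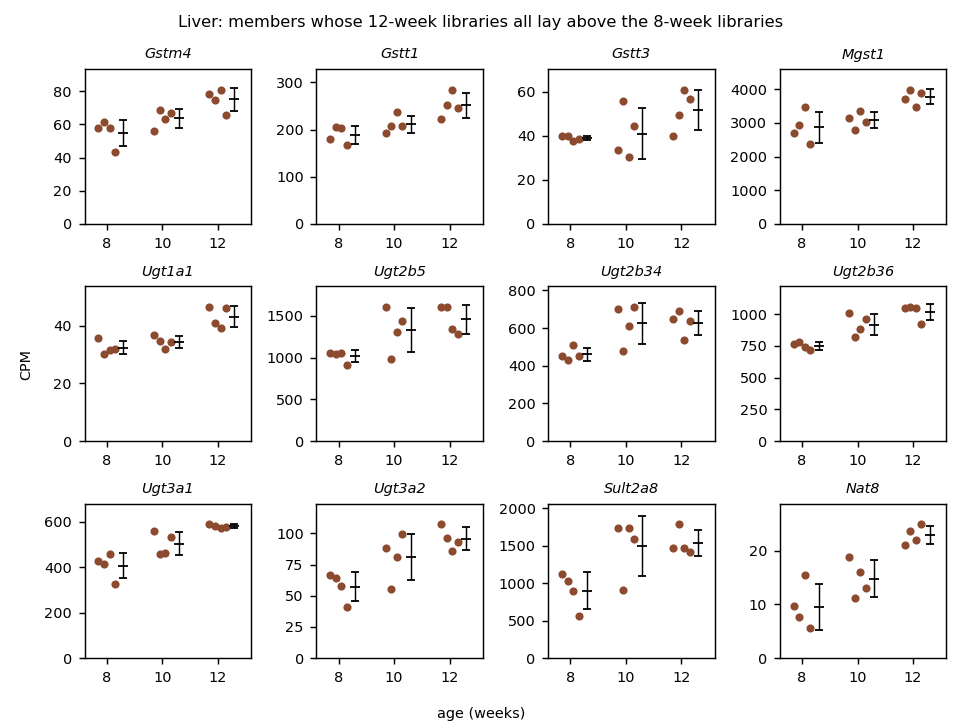
CPM in liver against age in weeks for the 12 members whose 12-week libraries all lay above the 8-week libraries, 1 point per library and a line at each mean. *Nat8* runs from 5.62–15.5 at 8 weeks to 21.2–25.1 at 12, and the 10-week libraries of most genes lie between or across both.

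Sums of other gene lists in the same liver libraries are given here, and their part in these values was not tested. Between 8 and 12 weeks only the pericentral sums did not overlap. Each zonation list has 9 genes. The pericentral sum, of genes expressed near the central vein, was 12196 to 13384 CPM at 8 weeks, 10333 to 13885 at 10 and 14798 to 17933 at 12, and the periportal sum was 19610 to 28592, 15140 to 19385 and 14438 to 23154. The 8 immune genes summed to 68.5 to 116 at 8 weeks, 144 to 209 at 10 and 85.4 to 118 at 12. The hepatocyte genes summed to 150339 to 202346, 125818 to 160542 and 143843 to 181468. In bulk tissue fewer cells of a type and less RNA per cell cannot be told apart.

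From 8 to 10 weeks in liver 0 members were called by edgeR (0.0136% of all genes higher, 0.00682% lower). Of 42 members, 22 were above 0 (49.9% of all genes), with a median of 0.03. At an unadjusted p under 0.05, 9 were higher (7.04%) and 3 lower (7.27%), DESeq2 called *Ugt2b34* and *Ugt2b36* higher (1.32% of all genes), and limma-voom called 0. From 10 to 12 weeks 38 of 42 were above 0 (51.0% of all genes), and 0 were called by edgeR (0.0204% and 0.0341%). At the unadjusted p 10 were higher (6.36%) and 0 lower (7.77%), and DESeq2 called *Gstt2* and *Ugt1a1* higher (1.36%). For 7 members the 12-week libraries lay above all 10-week ones (3.44%), *Gstk1* among them. The group means of 18 members were higher at each later age and those of 0 were lower at each. Another 20 had their lowest mean at 10 weeks and 4 their highest. These orders were not counted over all genes, so they cannot be read as particular to the members. The comparisons with 8 and 10 weeks share the 12-week libraries.

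In kidney 2 members passed the test, both higher at 10 than at 8 weeks (0.646% of all 17649 genes were called higher and 0.283% lower). *Sult1c2* was 57.6, 56.9, 54.0 and 49.6 CPM at 8 weeks, 66.7, 67.0, 66.1 and 67.6 at 10 and 64.5, 60.2, 61.7 and 61.0 at 12. The 3 ages did not overlap, with 12 weeks between the others, and the change to 10 weeks was 0.32 ± 0.05 (log2, edgeR adjusted p = 0.0146). *Gstm2* (chr3:107889004-107893785), a mu-class enzyme, was 36.2, 37.4, 37.2 and 29.5 at 8 weeks, 53.1, 48.2, 63.3 and 43.2 at 10 and 45.6, 38.4, 44.9 and 41.4 at 12. Every later library lay above the 8-week ones, and the change to 10 weeks was 0.59 ± 0.11 (edgeR adjusted p = 0.0237). Both calls were lost without 8-week replicate 3 or 10-week replicate 3, and that of *Gstm2* also without 8-week replicate 4 or 10-week replicate 1. The adjusted p ran from 0.0183 to 0.0546 for *Sult1c2* and from 0.00917 to 0.0751 for *Gstm2* when 1 library was left out.

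**Figure D5:**
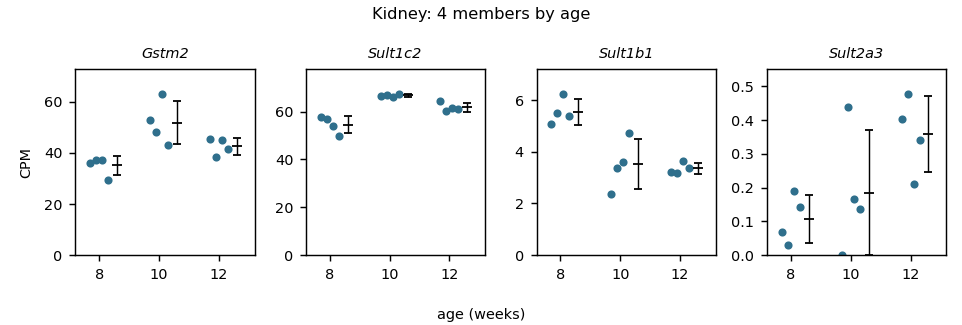
CPM in kidney against age in weeks for *Gstm2*, *Sult1c2*, *Sult1b1* and *Sult2a3*, 1 point per library and a line at each mean. *Gstm2* and *Sult1c2* are lowest at 8 weeks, *Sult1b1* is highest there, and *Sult2a3* is under 0.5 throughout.

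For 3 members all 10-week kidney libraries lay below the 8-week ones (5.16% of all genes) and for 2 above (3.83%). *Sult1b1* was 5.06, 5.49, 6.25 and 5.40 CPM at 8 weeks, 2.38, 3.35, 3.61 and 4.73 at 10 and 3.22, 3.17, 3.65 and 3.37 at 12. The 8-week libraries were the highest, with a log2 change to 10 weeks of -0.63 ± 0.16 (edgeR adjusted p = 0.0681). *Nat2* was 15.5, 15.4, 18.7 and 17.2 at 8 weeks and 9.85, 14.0, 12.0 and 11.5 at 10, a log2 change of -0.47 ± 0.11 (edgeR adjusted p = 0.0509) that DESeq2 and limma-voom called (1.76% and 0.34% of all genes lower). *Ugt3a2* was 288, 276, 274 and 286 at 8 weeks, 231, 272, 239 and 269 at 10 and 223, 236, 259.9 and 259 at 12, with the 8-week libraries again the highest. At an unadjusted p under 0.05, 3 members were higher (8.96%) and 4 lower (7.57%) from 8 to 10 weeks.

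From 8 to 12 weeks edgeR called 0 of 36 kidney members (0.0397% of all genes higher, 0.017% lower), with 6 higher (6.82%) and 6 lower (4.84%) at the unadjusted p. DESeq2 called 1 in each direction (0.544% of all genes higher, 0.354% lower) and limma-voom 0. The median of the members was -0.00, and 18 of 36 were above 0. The leading genes of the organ had estimates near 0. *Ugt3a1* was 1487, 1483, 1612 and 1423 CPM at 8 weeks and 1461, 1567, 1428 and 1562 at 12 (log2 0.01 ± 0.06). *Ugt2b38* was 812, 671, 822 and 603 and 758, 864, 690.0 and 742 (log2 0.07 ± 0.11). *Nat8* was 112, 147, 190.1 and 126, then 83.7, 129.6, 120.2 and 123, then 144, 169, 131 and 180.2 at the 3 ages, and the 8-week and 12-week libraries overlapped (log2 0.12 ± 0.16).

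Groups of 8 and 12 weeks in kidney did not overlap for 5 members that were higher (3.41%) and 3 that were lower (3.07%). *Gstp1* was 57.5, 59.7, 58.9 and 56.1 CPM at 8 weeks and 67.4, 72.0, 64.9 and 71.7 at 12 (log2 0.25 ± 0.05, edgeR adjusted p = 0.118). *Sult1b1* stayed low, with a log2 change of -0.73 ± 0.16 (edgeR adjusted p = 0.121). *Sult2a3* rested on 2, 1, 8 and 6 pairs at 8 weeks, 0, 16, 7 and 5 at 10 and 18, 19, 7 and 13 at 12. In CPM its 12-week libraries exceeded those of 8 weeks, and the estimate was 1.65 ± 0.63 (edgeR adjusted p = 0.345). *Gstp2*, at 1.32, 0.835, 1.01 and 0.504 and 1.41, 1.36, 1.24 and 1.71, and *Gsta2*, at 86.7, 87.3, 67.5 and 139 and 55.2, 48.0, 90.0 and 67.6, overlapped between these ages (log2 0.66 ± 0.25 and -0.54 ± 0.21). *Sult1d1* was 646, 756, 804 and 791 at 8 weeks and 539, 532, 745 and 684 at 12, which overlap.

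From 10 to 12 weeks edgeR called 0 kidney members (0.136% and 0.346% of all genes), with 6 in each direction at the unadjusted p (8.66% higher and 7.74% lower). DESeq2 called 1 higher (2.64%). *Gstt2* was 114, 109, 94.2 and 112 CPM at 10 weeks and 116, 139, 145 and 133 at 12, a log2 change of 0.30 ± 0.08 (edgeR adjusted p = 0.0984). By their means 15 of 36 kidney members were lowest at 10 weeks and 8 highest, which was not counted over all genes. In the same kidney libraries the 8 immune genes summed to 83.2 to 100.2 CPM at 8 weeks, 97.3 to 104 at 10 and 106 to 169 at 12, and the 9 proximal tubule genes to 20888 to 24514, 22918 to 25161 and 22820.2 to 26878, and their part in these values was not tested.

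No heart member passed the test between any 2 ages. From 8 to 12 weeks edgeR called 0 of 22, although 2.36% of all 15137 genes were called higher and 2.21% lower. At the unadjusted p 1 was higher (12.1%) and 0 lower (11.3%), and DESeq2 and limma-voom called 0. *Gstm2* was 74.0, 72.8, 72.1 and 78.0 CPM at 8 weeks, 93.9, 72.5, 68.8 and 86.3 at 10 and 92.9, 79.5, 89.9 and 91.7 at 12. It was the only member whose 12-week libraries cleared the 8-week ones (7.31% of all genes), with a log2 change of 0.25 ± 0.09 (edgeR adjusted p = 0.114). *Mgst3* was 229, 213, 201 and 201 at 8 weeks, 189, 199, 158 and 192 at 10 and 192, 147, 153 and 242 at 12. Its 10-week libraries lay below those of 8 weeks, and 12-week replicate 4 lay above them all. Without that library, which held 70 pairs of *Alb*, edgeR called *Mgst3* lower from 8 to 12 weeks. Over the 12 heart fits with 1 library left out, 0.522% to 6.38% of all genes were called lower. *Mgst3* averaged 12.2 CPM in liver and 193 in heart, and the part of liver RNA in the value of replicate 4 was not tested.

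From 8 to 10 weeks 0 heart members were called (0.76% and 0.304% of all genes), with 0 higher and 2 lower at the unadjusted p (8.26% and 7.5%). *Gstt2* was 8.66, 9.47, 8.84 and 11.6 CPM at 8 weeks, 7.82, 6.56, 7.11 and 6.96 at 10 and 7.03, 9.38, 6.78 and 9.14 at 12, and lay wholly below the 8-week range at 10 weeks only (log2 -0.44 ± 0.13, edgeR adjusted p = 0.123). From 10 to 12 weeks 0 were called (0.0132% and 0.0264%), with 0 higher (5.69%) and 1 lower (6.04%), *Mgst1*, at the unadjusted p. DESeq2 and limma-voom called 0 in both. *Gstm1*, at 200, 175, 181 and 189.7 and 174, 147, 157 and 213 CPM at 8 and 12 weeks, and *Gstp1*, at 93.8, 76.6, 68.5 and 71.5 and 70.9, 59.9, 60.5 and 84.1, overlapped. *Gsta3*, at 7.34, 6.68, 10.1 and 11.7 and 6.83, 6.05, 6.40 and 11.3, and *Nat1*, under 1 CPM in every heart library, overlapped as well.

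The change from 8 to 12 weeks differed between organs for 2 members, by the interaction of age and tissue in the edgeR fit of all libraries. For *Ugt3a2* the log2 change in liver exceeded that in kidney by 0.94 ± 0.19, adjusted p = 0.0258 (edgeR, Benjamini-Hochberg), where 0.167% of all genes were called in that direction. In liver its 12-week libraries all lay above the 8-week ones, and in kidney they all lay below. The call was lost without kidney 8-week replicate 4, 12-week replicate 1 or 12-week replicate 2 (adjusted p 0.00500 to 0.0690 over the left-out libraries). *Nat8* (1.14 ± 0.29, adjusted p = 0.0759) and *Gsta2* (1.24 ± 0.33, adjusted p = 0.0798) came next and were called with limma-voom (0.213% of all genes in that direction). At the unadjusted p 13 members had the larger change in liver (4.99%) and 0 in kidney (6.17%).

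For *Gstt2* the change in liver exceeded that in heart by 0.70 ± 0.18, adjusted p = 0.0228 (edgeR), where 1.81% of all genes were called in that direction and 2.35% in the other. At the unadjusted p 3 members had the larger change in liver (8.68%) and 0 in heart (9.72%). The call was lost with limma-voom and without heart 8-week replicate 4, heart 12-week replicates 1 or 3, or liver 8-week replicate 3 (adjusted p 0.00452 to 0.0658). Between kidney and heart edgeR called 0 (0.0507% and 0.0609% of all genes), limma-voom 0, with 2 and 1 at the unadjusted p (5.42% and 5.73%).

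The rest of the pathway was followed through 4 further lists. Of 46 other conjugating enzymes (further UGT, SULT and NAT genes with methyl and glycine transferases), 24 were tested in liver from 8 to 12 weeks, 0 were called and the median log2 change was 0.13. Of 20 cofactor genes, such as *Ugdh*, which makes UDP-glucuronic acid, and *Gclc*, which starts glutathione synthesis, 18 were tested, 0 were called and the median was 0.07. Of 17 genes of conjugate export and cleavage, such as the pump gene *Abcc2*, 16 were tested, 0 were called and the median was 0.11. Of 17 regulators, such as *Nfe2l2* and *Nr1i2*, all 17 were tested, 0 were called and the median was 0.14. These medians stand beside -0.00 for all genes and 0.27 for the members. At the unadjusted p the 4 lists had 3, 5, 3 and 4 genes higher and 1, 1, 0 and 1 lower, of 24, 18, 16 and 17 tested, where 7.37% of all genes were higher and 7.77% lower.

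In kidney the same lists had medians of -0.03, 0.10, 0.10 and -0.09 and 0 called genes. In heart from 8 to 12 weeks *Sts*, a steroid sulfatase that reverses sulfation, fell (log2 -0.72 ± 0.13, edgeR adjusted p = 0.00987) and *Abcc4*, an export pump, rose (log2 0.40 ± 0.10, edgeR adjusted p = 0.0344), while the other 3 lists had 0 called genes there at edgeR's adjusted p. Marker genes called between ages were all in heart: *Ryr2*, *Myl2* and *Kap* from 8 to 12 weeks, and *Cyp2e1*, *Lrp2* and *Ttr* from 8 to 10 weeks, of which *Kap*, *Cyp2e1*, *Lrp2* and *Ttr* are genes of liver or kidney. Of all heart genes, 2.36% were called higher and 2.21% lower from 8 to 12 weeks, and 0.76% and 0.304% from 8 to 10 weeks. The part of liver or kidney RNA in these calls was not tested.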

How the data were processed

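RNA was extracted from flash-frozen heart, kidney and liver, and polyA libraries were sequenced as paired reads on a NovaSeq instrument. The authors checked reads with FastQC 0.11.9, trimmed them with cutadapt 4.2 and aligned them to GRCm39 with STAR 2.7.11b, per the labels and the study's methods. The deposited files hold raw counts of read pairs per Ensembl gene, and the unstranded column was used. It counts pairs that map uniquely and overlap 1 gene, so paralogs and overlapping genes lose pairs. Pairs assigned to no gene (21.2% to 31.4% of a library) were left out of library sizes.

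Genes were kept where at least 1 age group had 2 or more libraries above 0 and a mean count of 10 or more. Ages were compared within each tissue with edgeR 4.0.16 (quasi-likelihood F-test, TMM, R 4.3.3), and tissues and interactions in 1 fit of 36 libraries. Benjamini-Hochberg adjustment ran over all genes kept (14672 in liver, 17649 in kidney, 15137 in heart, 19716 in all), with a threshold of 0.05. Levels are CPM with TMM factors over 36 libraries, per kilobase of exon from a GENCODE annotation of GRCm39. Promoters were read from the GRCm39 genome at that annotation's canonical transcript starts, and the files were counted on another release of the Ensembl annotation. The tests were also run on simulated counts in which only genes of higher mean count were changed. That run does not cover members with few pairs. Alternatives were RLE scaling, DESeq2 1.42.0, limma-voom 3.58.1, no count filter, a replicate block and leaving out each library.

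The members and all lists were chosen with earlier results of these data known. Members described library by library are those called in any age comparison, the 3 highest per kilobase in each tissue, the 2 highest and 2 lowest estimates from 8 to 12 weeks in each tissue, and *Nat8* and *Sult2a3*. Those named for groups that do not overlap were added after their values were seen. Of the other lists, genes called between ages are named. The other lists were hepatocyte, proximal tubule, cardiomyocyte, red cell, immune, pericentral and periportal markers, other conjugating enzymes, cofactor supply, export and cleavage, and regulators. Protein sequences are not analysed here.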

Additional observations from a re-analysis of the deposited data

Results flagged for a closer look

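In groups of 4 libraries, 8 of 144 groups held 1 library whose gap to the nearest of the others passed Dixon's critical value for 4 samples, where chance gives about 1 in 20 groups. For *Gstm2* in kidney at 8 weeks replicate 4 was low, at 29.5 CPM against 36.2 to 37.4 in the others. For *Gstm3* in liver at 12 weeks replicate 3 was high, at 161 CPM against 77.2 to 84.7. In liver at 10 weeks *Sult1a1* was 524 CPM in replicate 2 against 296 to 321, *Gsta2* was 36.4 in replicate 4 against 25.1 to 26.8, and *Gstp1* was 2273 in replicate 1 against 1580.2 to 1624. In heart *Gstp2* was 7.04 CPM in 8-week replicate 1 against 2.89 to 3.12, and 7.23 in 12-week replicate 4 against 2.65 to 3.23. *Gsta3* was 11.3 CPM in heart 12-week replicate 4 against 6.05 to 6.83. That library held 70 pairs of *Alb*, and the part of liver RNA in its values was not tested.

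For 2 members the change from 8 to 12 weeks differed between tissues by the edgeR interaction test. *Ugt3a2* differed by 0.94 on the log2 scale between liver and kidney (adjusted p = 0.0258). *Gstt2* differed by 0.70 between liver and heart (adjusted p = 0.0228).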

How the results depend on the processing

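Of the counts of calls, 100 values under other tools, scalings, filters or the block stayed within 1.5 times the reported count and 23 did not. In liver from 8 to 12 weeks the members called higher numbered 11 with DESeq2 (1.63% of all genes), 1 with limma-voom (0.177%) and 8 without the count filter (0.588%). From 8 to 10 weeks in liver DESeq2 called 2 higher (1.32%), and without the filter 2 were higher (0.634%) and 1 lower (0.384%). From 10 to 12 weeks DESeq2 called 2 higher (1.36%). In kidney from 8 to 12 weeks DESeq2 called 1 higher (0.544%) and 1 lower (0.354%), and without the filter 2 were higher (0.789%) and 4 lower (0.430%). From 8 to 10 weeks in kidney the members called lower numbered 2 with DESeq2 (1.76%), 1 with limma-voom (0.340%) and 6 without the filter (1.05%). From 10 to 12 weeks in kidney DESeq2 called 1 higher (2.64%), and without the filter 2 were higher (1.18%) and 2 lower (1.05%). In heart without the filter 2 were higher from 8 to 10 weeks (*Sult2a8* and *Ugt2b1*, 1.35%) and 1 lower (0.83%), and 2 were lower from 10 to 12 weeks (0.606%). The interaction of liver and kidney gave 4 calls with limma-voom (0.213%), and that of liver and heart gave 0. The cause was not tested.

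With 1 library left out, calls in liver ranged from 0 to 3 higher from 8 to 12 weeks (0.0137% to 0.390% of all genes). From 8 to 10 weeks they ranged from 0 to 1 higher (0.00676% to 0.349%). In kidney from 8 to 10 weeks they were 0 to 2 higher (0.119% to 1.39%) and 0 to 1 lower (0.0114% to 0.576%). Kidney from 10 to 12 weeks gave 0 to 1 higher (0.0114% to 1.03%). Heart from 8 to 12 weeks gave 0 to 1 lower (0.522% to 6.38%). The liver and kidney interaction gave 0 to 2 (0.0660% to 0.760% higher, 0.0508% to 0.750% lower). That of liver and heart gave 0 to 3 (1.05% to 3.51% higher, 1.25% to 3.94% lower). Kidney against heart ranged from 22 to 23 higher (30.6% to 31.0%). *Ugt2b38* in liver from 8 to 12 weeks turned to -0.11 without Liver 12 weeks replicate 2, which held 50.2 CPM, and ranged up to 1.34 without another library.

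By the study's methods each mouse was taken at 1 age, so the replicate numbers of the labels could not pair animals across ages. For libraries of different ages with the same number, deviations from group means had median correlations of -0.00, -0.00 and 0.03 in heart, kidney and liver. Library numbers shared by tissues gave correlations of 0.058 to 0.269 for liver and kidney, where 12 of 12 correlated best with their own number, a hint from the data and not the design. Not every pair was over 0.1. With a replicate block on that number the liver and kidney interaction gave 3 calls (*Gsta2*, *Nat8* and *Ugt3a2*) in place of 1 (0.259% of all genes), and the block changed no other count of calls by over 1.5 times. DESeq2 gave an adjusted p to 34, 34 and 29 of the 36 kidney members from 8 to 12, 8 to 10 and 10 to 12 weeks, and to 18, 22 and 13 of the 22 in heart. Depth limits members with few pairs, such as *Sult2a3* with 102 pairs over 12 kidney libraries.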
